A study of Glycine soja with 14 samples.

Results

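The comparison was between roots of wild soybean (Glycine soja, line G07256) held for 1 h in NaHCO3 and roots that had received no stress (0 h). It used 4 of the 14 arrays of the series, chosen by their labels, with 2 arrays at 1 h and 2 at 0 h. Seedlings of 21 days were moved into growth boxes with 1/4 strength Hoagland's solution holding 50 mmol/L NaHCO3 at pH 8.5, and the control seedlings had grown in the same solution without NaHCO3. The 3 cm next to the root apex was taken, and the methods give 3 plants pooled per sample and biological replicates. The methods and the labels give different day lengths and ages. The series used here has no unstressed array but those at 0 h, so 1 h of NaHCO3, the transfer and the hour of sampling cannot be told apart.

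Bicarbonate raises the pH of the solution around the root and is also a substrate of the cell. Phosphoenolpyruvate carboxylase joins it to phosphoenolpyruvate to form oxaloacetate, the precursor of malate, and the enzyme is made more active when phosphoenolpyruvate carboxylase kinase phosphorylates it. Cell walls of growing roots yield most easily in acid, through expansins, which loosen the bonds between wall polymers, and through xyloglucan endotransglycosylases, which cut and rejoin xyloglucan chains. Early stress signalling in roots is known to use calcium and calmodulin, protein kinases, transcription factors of the WRKY and NAC families, and jasmonate, a hormone made from linolenic acid.

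RNA was measured on the Affymetrix Soybean Genome Array, which was designed on cultivated soybean (Glycine max). A probe set is a group of short probes read as 1 value, and several probe sets can measure 1 gene. The study designed primers for 16 genes measured by QRT-PCR, and all 16 were among the probe sets tested here. The probe sets of 5 of them passed the test at 1 h, against 0.553% of all tested probe sets. The paper drew these genes at random from its own findings, so 5 of 16 is no independent count. Primers of the 4 called genes with the largest changes are given. Whether they amplify the transcripts that the probe sets read was not tested. Higher at 1 h were an expansin and a WRKY factor. Lower were a NAM-like (no apical meristem, the founding member of the NAC family) protein and a pectinesterase. The primers read 5′ to 3′, from the study's primer table.
Expansin Gma.10775.2, sense: tccatcaaagggtccaaaac
Expansin Gma.10775.2, antisense: ccatcactggtggtgacttg
WRKY factor Gma.1256.1, sense: ggccatcaaggatcaccataat
WRKY factor Gma.1256.1, antisense: ggctccaaggatgtctttctga
NAM-like GmaAffx.50811.2, sense: ggaagtggccaagacaacat
NAM-like GmaAffx.50811.2, antisense: tgctttctttgcatccattg
Pectinesterase GmaAffx.82617.1, sense: gcagtgaggaacaatgctga
Pectinesterase GmaAffx.82617.1, antisense: cttctggtttggcaatggtt

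Of 37593 soybean probe sets, 28726 lay above background, taken as a log2 intensity of 3.91 (the level that 95% of 23350 probe sets for 2 soybean pathogens did not pass), and 28566 were tested after 160 with unequal replicates were left out. The replicates had a Pearson correlation of 0.966 at 1 h and 0.971 at 0 h across the tested probe sets, which are not independent replicates. The spiked poly-A controls differed between the groups, with mean log2 values of 7.49 and 7.92 at 1 h and 5.60 and 5.64 at 0 h. The 18S ribosomal RNA lay at 7.09 and 7.60 at 1 h and at 8.54 and 8.04 at 0 h. The part of these differences in the results was not tested. Aquaporins of the root tip list were above background in 23 of 25 probe sets, and 8 of 10 probe sets of photosynthesis markers, which should be low in roots, also lay above it in both groups.

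Markers of nodules, the organs of nitrogen fixation, set 1 h replicate 2 apart. ENOD93 had a log2 intensity of 6.55 on the first and 2.34 on the second 1 h array, against 6.86 and 7.16 at 0 h. N-26 lay at 8.62 and 4.56 at 1 h and at 9.37 and 9.12 at 0 h, and N-26B at 6.27 and 1.01 at 1 h and at 9.32 and 8.31 at 0 h. ENOD55-2 lay at 7.13 and 4.69 at 1 h, against 7.65 and 7.46 at 0 h. All 4 were lower on replicate 2 than on replicate 1 at 1 h. On 1 h replicate 1 all 4 were also below both 0 h arrays, N-26B by the most. ENOD40B was below both 0 h arrays on each 1 h array, at 6.88 and 6.72 against 7.48 and 7.31. NOD33 did not separate the arrays (10.34 and 10.40 at 1 h, 10.36 and 10.35 at 0 h). Over the 6 marker probe sets the summed intensity was 2119 and 1510 at 1 h and 3110 and 2653 at 0 h. The 4 markers were among the 160 left out, of which 45 lay over 2 log2 units lower on 1 h replicate 2 than on either 0 h array. Their part in the results below was not tested. In whole root tips, fewer cells of a type and less RNA per cell cannot be told apart.

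**Figure D1:**
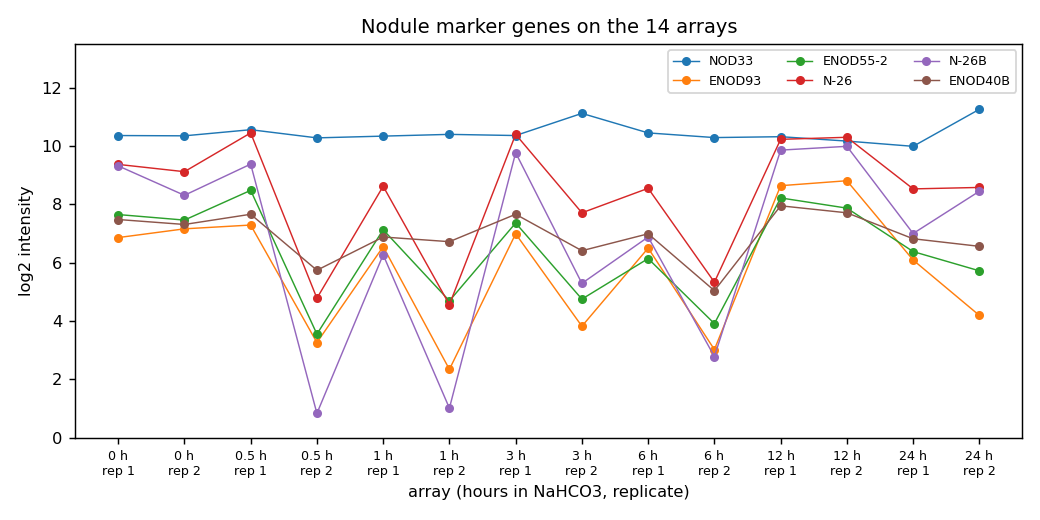
Log2 intensity (y axis) of 6 nodule marker genes on each of the 14 arrays (x axis, in order of hours in NaHCO3, 2 replicates per time), 1 line per gene. ENOD93 lay at 2.34 and N-26B at 1.01 on 1 h replicate 2, far below 1 h replicate 1 and both 0 h arrays, and the same genes were also low on replicate 2 at 0.5, 3 and 6 h.

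After 1 h of NaHCO3, 158 of 28566 probe sets passed the test (0.553%), 51 higher (0.179%) and 107 lower (0.375%) than in unstressed roots. The change was over 2-fold in 39 of the higher and 82 of the lower ones. Calls required p under 0.05 before adjustment and under 0.15 after Benjamini-Hochberg adjustment in limma, fitted over all 14 arrays so that the spread came from all 7 times. Before adjustment 1028 probe sets were higher (3.6%) and 1412 lower (4.94%), and 12 of the calls had an adjusted p under 0.05, 6 in each direction. The smallest adjusted p was 0.0121, and the median change of all tested probe sets was -0.01 on the log2 scale. The arrays at 1 h did not overlap those at 0 h in any of the 158, and they did not overlap in 39.2% of all tested probe sets. Of the 23350 pathogen probe sets none was called by limma, with 1898 (8.13%) at an unadjusted p under 0.05. The soybean shares before adjustment, 3.6% higher and 4.94% lower, are together about as large. Against the same 0 h arrays, 1582 probe sets were called at 0.5 h (5.54%) and 4849 at 3 h (17%), both more than at 1 h.

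**Figure D2:**
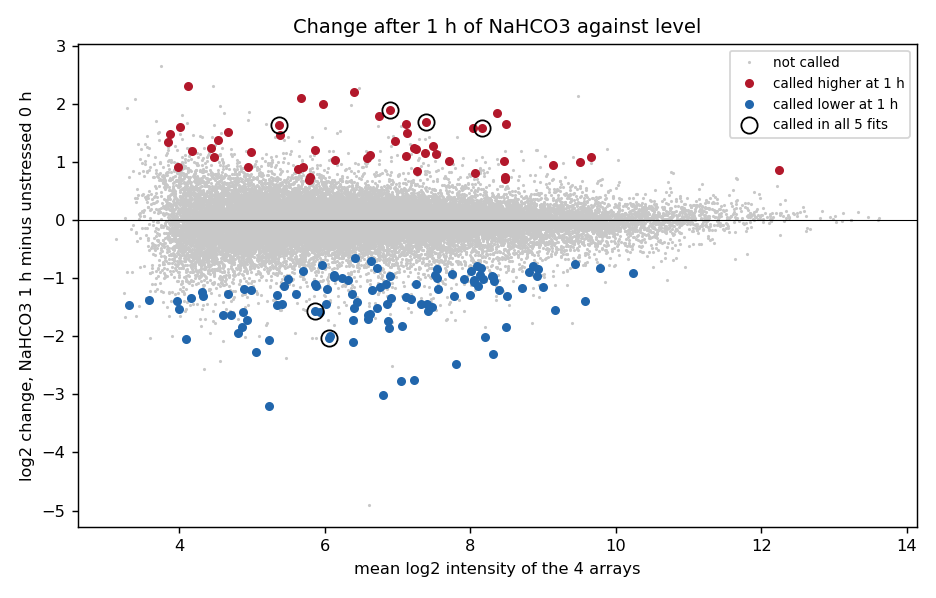
Log2 change, 1 h of NaHCO3 minus unstressed 0 h (y axis), against the mean log2 intensity of the 4 arrays (x axis), 1 point per tested probe set. Red points are the 51 probe sets called higher, blue points the 107 called lower, and black rings mark the 6 called in the fit of all arrays and in all 4 fits that left out 1 array.

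Few of these calls held when an array was left out. Without 1 h replicate 1 the test kept 38 of the 158, without 1 h replicate 2 it kept 11, without 0 h replicate 1 it kept 48 and without 0 h replicate 2 it kept 6. In these fits a single array stood for its group and was assumed to vary like the other times. Of the 158, 91 held in none of the 4 fits, 45 held in 1, 14 in 2, 2 in 3 and 6 in all 4 (0.021% of all tested). The limma fit on the 4 arrays alone called none, with 2554 probe sets at an unadjusted p under 0.05 and a smallest adjusted p of 0.324, and neither did the methods' t-test, with 1868. The 6 probe sets that held in all 4 fits are called firm here. They kept their call in 24 of 27 settings besides the main fit, and those 24 include the 4 fits that define them. Their calls failed only in the fit on 4 arrays and in the 2 forms of the methods' t-test.

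The first 4 of the firm probe sets were higher at 1 h and had a description. Gma.10775.2.S1_s_at, described as a cell wall loosening gene and as the expansin ATEXPA10 of Arabidopsis, had log2 intensities of 7.82 and 7.86 at 1 h and 6.01 and 5.89 at 0 h. It rose by 1.89 (3.7-fold, SE 0.18, n = 2 arrays per group, limma adjusted p = 0.0121). The gap between the nearest arrays of the 2 groups was 1.80, many times the largest difference within a group, 0.13. Firm probe sets were chosen by their calls on these same arrays, which favours wide gaps and close replicates. Gma.361.1.S1_at, described as a xyloglucan endotransglycosylase, had 8.41 and 8.04 at 1 h and 6.38 and 6.71 at 0 h. It rose by 1.68 (3.21-fold, SE 0.19, limma adjusted p = 0.0175), and its replicates differed by up to 0.37, the widest spread of the 6.

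PPCK2 (Gma.56.1.S1_at), a phosphoenolpyruvate carboxylase kinase, lay at 9.0 and 8.92 at 1 h and at 7.36 and 7.39 at 0 h. It rose by 1.59 (3.00-fold, SE 0.17, limma adjusted p = 0.0175), with arrays of each group within 0.09 of each other. GmaAffx.30248.1.S1_at, described only as a protein kinase family member, had 6.18 and 6.19 at 1 h and 4.57 and 4.53 at 0 h. Its rise was 1.64 (3.11-fold, SE 0.15, limma adjusted p = 0.0121), and its arrays were the closest of the 6, within 0.05 in each group.

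The other 2 firm probe sets were lower at 1 h, and the annotation used here gives them no gene. GmaAffx.38122.1.S1_at had 5.0 and 5.09 at 1 h and 7.11 and 7.05 in unstressed roots, a fall by 2.04 on the log2 scale (4.10-fold lower, SE 0.22, limma adjusted p = 0.0175). GmaAffx.38977.1.S1_s_at had 5.01 and 5.15 at 1 h and 6.49 and 6.79 in unstressed roots, a fall by 1.56 (2.94-fold lower, SE 0.17, limma adjusted p = 0.0175). All 4 of these 1 h values were above background.

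**Figure D3:**
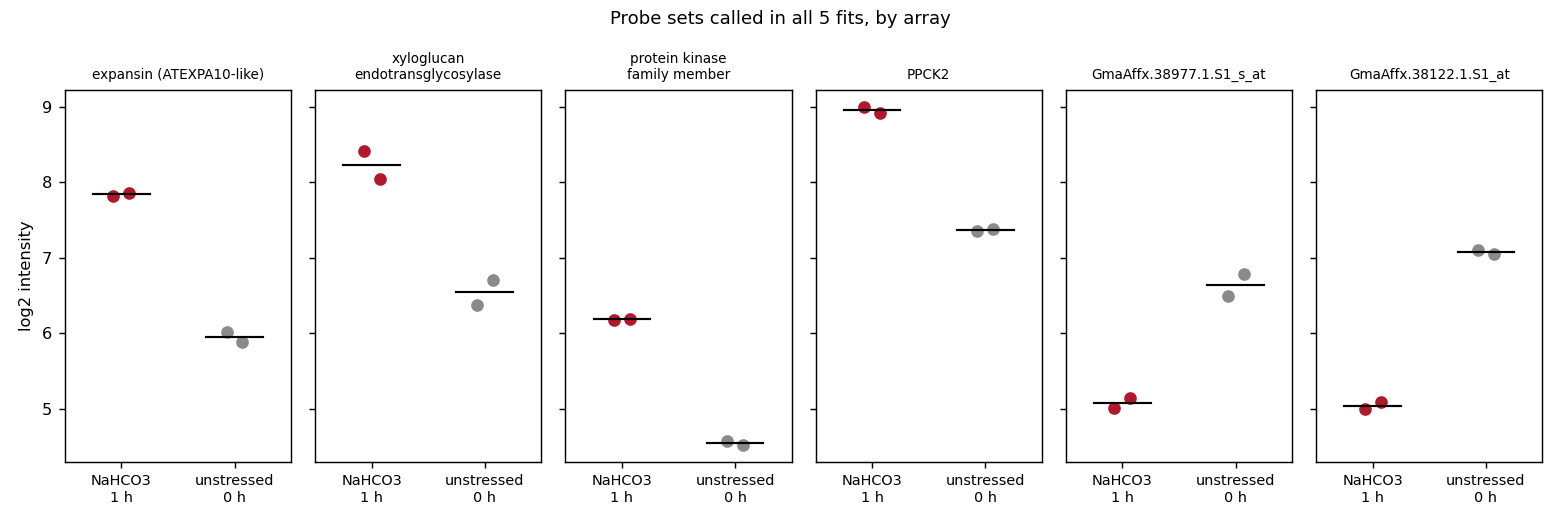
Log2 intensity (y axis) of the 6 firm probe sets on each array, with 1 h of NaHCO3 left and unstressed 0 h right, points for the 2 arrays of a group and bars for their mean. In every panel the 2 groups are apart by more than their own arrays, which the choice of firm probe sets on these arrays favours. The panels show 4 probe sets higher and 2 lower at 1 h.

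Cell wall genes moved both ways. In the list of expansins and xyloglucan transferases 3 of 7 tested probe sets were called higher and none lower. Of all tested probe sets 0.179% were called higher. The list had a median change of 0.61 against -0.01 for all tested probe sets. The list was made by symbol and does not hold the firm expansin and endotransglycosylase, which have a description only. EXP2 rose in 2 of its 3 probe sets. Gma.7006.1.S1_at had 7.2 and 7.17 at 1 h and 6.12 and 6.00 in unstressed roots (a rise by 1.13, SE 0.15, limma adjusted p = 0.0438), and GmaAffx.93176.1.S1_s_at had 6.21 and 6.72 at 1 h and 5.13 and 5.39 at 0 h (1.2, SE 0.23, limma adjusted p = 0.113). EXP1 had 7.99 and 7.93 at 1 h and 6.58 and 7.02 in unstressed roots, a rise by 1.16 (SE 0.24, limma adjusted p = 0.135). The remaining members did not pass, among them EXP4 at -0.02, XTH1, a xyloglucan hydrolase and transferase, at -0.56, and CIM1, an expansin-like gene, at 0.61.

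The pectinesterase GmaAffx.82617.1.S1_at, an enzyme that removes methyl groups from wall pectin, went the other way. It had 5.65 and 6.26 at 1 h and 7.36 and 7.58 in unstressed roots, a fall by 1.51 (SE 0.29, limma adjusted p = 0.113). None of the 13 probe sets in the list of other cell wall genes passed (median change -0.10). Beyond the firm expansin and endotransglycosylase, the calls in this group did not hold without 0 h replicate 2 or without 1 h replicate 2, and those of EXP1 and the pectinesterase held in none of the 4 leave-one-out fits.

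GASA14, of a family of small cysteine-rich peptides known as gibberellin-regulated, rose in 2 of its 3 probe sets. GmaAffx.90343.1.S1_at had 8.32 and 8.12 at 1 h and 7.06 and 7.35 at 0 h (1.01, SE 0.18, limma adjusted p = 0.0945), and GmaAffx.90343.1.S1_s_at had 9.64 and 9.59 at 1 h and 8.48 and 8.86 at 0 h (0.94, SE 0.20, limma adjusted p = 0.145). The third lay at a change of 0.90 with an adjusted p of 0.455 in limma. Of the list of gibberellin, cytokinin and brassinosteroid genes the 2 GASA14 probe sets were the only ones called among 27. Of all tested probe sets 0.553% were called. The list's median change was 0.20. Neither call held in any leave-one-out fit.

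Genes of phosphoenolpyruvate and malate metabolism were called in 1 of 15 probe sets, PPCK2, against 0.553% of all tested probe sets. Its relatives PPCK3 and PPCK1 had changes of 1.23 (SE 0.39, limma adjusted p = 0.375) and 0.71 (SE 0.30, limma adjusted p = 0.551), and PPCK4 lay at 0.32. A further phosphoenolpyruvate carboxylase kinase of the QRT-PCR set, which has a description but no symbol and so is not in the list, lay at -0.49 and was not called. The carboxylase itself, measured as PEPC4, PEPC7, PEPC16, PEPC17 and PPC1, was not called in any probe set. The list's median change was 0.14.

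Of 102 tested probe sets named WRKY by symbol or description 4 were called, all higher at 1 h, and changes were above 0 in 53 and below 0 in 49. Of the 4, 3 were named only through the study's tables of early rises and of QRT-PCR genes, which were chosen on these arrays. Of the 2202 probe sets with a description 1.73% were called, against 0.553% of all tested, and in the table of early rises 11 of 1189 were called, 11 higher and 0 lower, so the direction of genes named this way is set in part by how the table was made. WRKY12 (Gma.744.1.S1_at) had 9.21 and 9.35 at 1 h and 7.77 and 7.12 in unstressed roots, a rise by 1.84 (3.57-fold, SE 0.26, limma adjusted p = 0.0666). A pair of probe sets carry the description WRKY53 of Arabidopsis. GmaAffx.73842.2.S1_at had 7.64 and 7.64 at 1 h and 6.02 and 5.68 at 0 h (1.79, SE 0.26, limma adjusted p = 0.0666), and GmaAffx.51816.1.S1_at had 9.22 and 9.42 at 1 h and 7.63 and 7.70 at 0 h (1.66, SE 0.27, limma adjusted p = 0.0826). Gma.1256.1.S1_at, described as WRKY41, had 8.85 and 8.81 at 1 h and 7.12 and 7.38 at 0 h (1.58, SE 0.25, limma adjusted p = 0.0826). No 1 h array overlapped a 0 h array in these 4, as in all 158 calls and in 39.2% of all tested probe sets.

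Among 90 probe sets with a WRKY symbol, 1 was called, WRKY12, against 0.553% of all tested probe sets. The median change of the 90 was -0.01, the same as for all tested probe sets. WRKY5, WRKY43 and WRKY46 had changes of 1.45, 1.49 and 1.44 that did not pass (limma adjusted p = 0.197, 0.348 and 0.329). WRKY10 lay at -1.04. The calls of WRKY12 and GmaAffx.73842.2.S1_at were lost without 0 h replicate 2 or 1 h replicate 2, and those of the other pair with any 1 of the 4 arrays left out.

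NAC proteins, another plant family of transcription factors, held a call in each direction. NAC6 had 7.93 and 7.95 at 1 h and 6.59 and 6.00 in unstressed roots, a rise by 1.65 (3.13-fold, SE 0.29, limma adjusted p = 0.0945). It was the 1 call among 28 probe sets with a NAC symbol (median -0.07), against 0.553% of all tested probe sets. The NAM-like GmaAffx.50811.2.S1_at had 5.53 and 5.93 at 1 h and 7.22 and 7.08 in unstressed roots, a fall by 1.42 (2.67-fold lower, SE 0.18, limma adjusted p = 0.0420), and lost its call only without 0 h replicate 2. MYB122, of the MYB family, had 6.27 and 6.01 at 1 h and 7.10 and 8.07 in unstressed roots, a fall by 1.45 (SE 0.30, limma adjusted p = 0.145). Its 0 h arrays were 0.97 apart and the call held in 5 of 27 other settings. NAC6 and MYB122 each kept their call in 1 leave-one-out fit, without 0 h replicate 1.

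Protein kinases by description or symbol gave 7 calls among 204 tested probe sets, 5 higher and 2 lower, with PPCK2 and GmaAffx.30248.1.S1_at among them. Of the 5, 3 are in the table of early rises, so the split by direction is no independent count, and 0.553% of all tested probe sets and 1.73% of those with a description were called. GmaAffx.54699.1.S1_at, a putative protein kinase, had 6.85 and 7.09 at 1 h and 5.02 and 4.93 at 0 h and rose by 2.00 (4.00-fold, SE 0.32, limma adjusted p = 0.0826), a call that no leave-one-out fit kept. PERK1, a receptor kinase with a proline-rich domain like that of extensins, had 7.63 and 7.45 at 1 h and 8.44 and 8.70 at 0 h. It fell by 1.03 (SE 0.15, limma adjusted p = 0.0683), a call lost without 0 h replicate 2 or 1 h replicate 2. A calcium-dependent protein kinase, Gma.3877.1.S1_at, the fifth called gene of the QRT-PCR set and named here after its values were seen, had 8.89 and 8.81 at 1 h and 8.07 and 8.15 in unstressed roots (a rise by 0.74, SE 0.14, limma adjusted p = 0.109), a call that no leave-one-out fit kept.

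Calmodulins, the small proteins that bind calcium and pass its signal on, were called lower in 3 of 19 probe sets of the calcium list and higher in none. Of all tested probe sets 0.375% were called lower. The calls are of SCAM-5 and of both probe sets of SCAM-4, so they are not 3 separate genes. SCAM-5 had 6.64 and 6.77 at 1 h and 7.66 and 7.95 in unstressed roots, a fall by 1.10 (2.14-fold lower, SE 0.17, limma adjusted p = 0.0723). SCAM-4 had 7.62 and 7.99 at 1 h and 8.70 and 8.99 at 0 h on Gma.3223.1.S1_at (-1.04, SE 0.22, limma adjusted p = 0.146), and 7.89 and 8.37 at 1 h and 9.06 and 9.54 at 0 h on Gma.17842.1.S1_s_at (-1.17, SE 0.24, limma adjusted p = 0.145). SCAM-4 and SCAM-5 are the isoforms of soybean calmodulin that differ most from the common plant form. The common forms SCAM-1 and SCAM-2 had changes within 0.24 of 0 in all their probe sets, and none was called. The list's median change was -0.02. The SCAM-4 calls held in none of the 4 leave-one-out fits and that of SCAM-5 in 1.

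**Figure D4:**
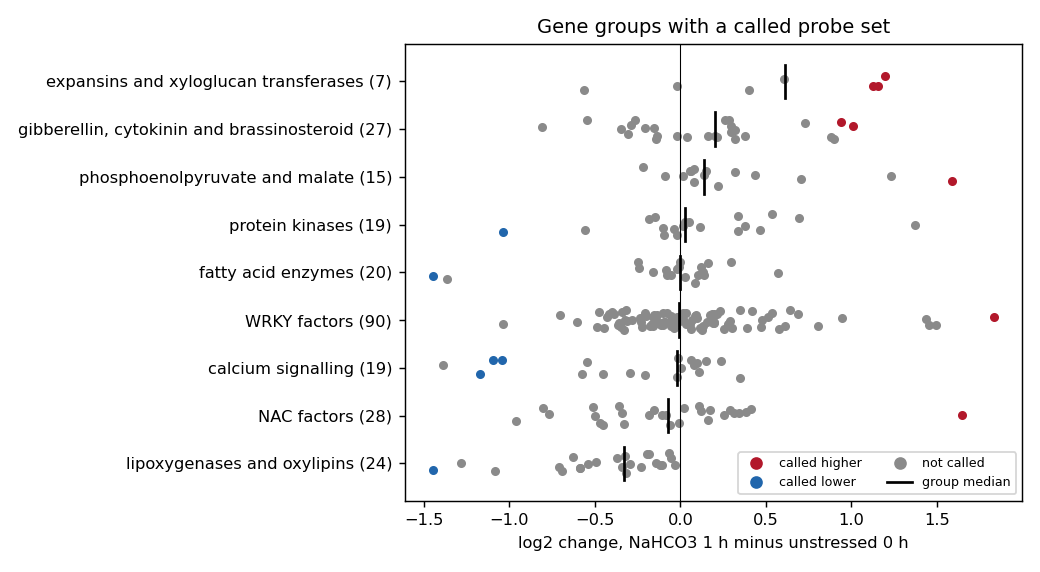
Log2 change, 1 h of NaHCO3 minus unstressed 0 h (x axis), of the tested probe sets in the 9 gene lists that held a call (y axis, with the number tested). Red points were called higher, blue points called lower, grey points not called, and bars are list medians, from 0.61 for expansins and xyloglucan transferases to -0.33 for lipoxygenases and oxylipins.

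A few probe sets of enzymes that make linolenic acid or jasmonate were lower at 1 h. Of 8 tested probe sets named as AOS1, FAD7 or 12-oxophytodienoate reductase, 3 were called, all lower, and 2 of the 8 had changes above 0. The 8 were gathered by the names of the 3 called genes, so 3 of 8 is no independent count. Of all tested probe sets 0.375% were called lower, and in the list of fatty acid enzymes 1 of 20 was. AOS1, an allene oxide synthase, which makes the first intermediate specific to jasmonate, had 6.72 and 6.49 at 1 h and 7.72 and 8.38 in unstressed roots, a fall by 1.45 (2.73-fold lower, SE 0.28, limma adjusted p = 0.119). FAD7-2, a plastid desaturase that makes linolenic acid, had 5.49 and 5.12 at 1 h and 6.36 and 7.13 at 0 h and fell by 1.44 (2.72-fold lower, SE 0.30, limma adjusted p = 0.145). A 12-oxophytodienoate reductase 3, a later enzyme of the pathway (GmaAffx.6142.1.S1_at, named after its values were seen), had 7.21 and 7.60 at 1 h and 8.53 and 8.31 in unstressed roots, a fall by 1.01 (SE 0.20, limma adjusted p = 0.124). In AOS1 and FAD7-2 the 0 h arrays were farther apart than the 1 h arrays.

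All 24 tested probe sets of lipoxygenases, allene oxide synthases and allene oxide cyclases had changes below 0, from -1.45 to -0.03 with a median of -0.33. But AOS1 was the only 1 called, against 0.553% of all tested probe sets. LOX10 at -1.28 (limma adjusted p = 0.348) and AOC3 at -0.71 and -0.63 were not called. Several of the 24 probe sets measure the same gene, so they are not separate observations. AOS1 and FAD7-2 kept their call without 0 h replicate 1 and lost it without any of the other 3 arrays, and the reductase lost it in all 4 fits.

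The largest named falls were in a pair of probe sets whose descriptions hold the term pathogenesis-related. A role of these genes in defence was not tested. Gma.18078.1.A1_at, described as a pathogenesis-related transcriptional factor of the ERF (ethylene response factor) kind, had 4.65 and 5.92 at 1 h and 8.21 and 8.39 in unstressed roots, a fall by 3.01 (8.07-fold lower, SE 0.50, limma adjusted p = 0.0868). Its 1 h arrays were 1.27 apart, and it kept its call only without 1 h replicate 2. GmaAffx.59879.1.S1_at, a thaumatin-like pathogenesis-related protein, had 7.54 and 6.78 at 1 h and 9.49 and 9.44 at 0 h and fell by 2.31 (4.96-fold lower, SE 0.32, limma adjusted p = 0.0606), a call lost without 0 h replicate 2 or 1 h replicate 2. None of the 14 probe sets with an AP2/ERF symbol was called (median -0.09), nor any of the 19 of the list of protein phosphatases and defence.

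Another pair of enzymes was among the named falls. ALDH3J2, an aldehyde dehydrogenase, had 3.44 and 3.09 at 1 h, both below background, and 4.56 and 4.77 at 0 h. It was at least 1.68-fold lower at 1 h, with the lower level set at background (limma adjusted p = 0.109). A CMP/dCMP deaminase, GmaAffx.87305.1.S1_at, had 7.35 and 7.73 at 1 h and 8.60 and 8.74 in unstressed roots, a fall by 1.13 (SE 0.22, limma adjusted p = 0.113). Neither call held in a leave-one-out fit.

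The called genes differed in when they had changed. The contrast of 1 h with 0.5 h called 441 probe sets (1.54%), 243 higher (0.851%) and 198 lower (0.693%), and shares the 1 h arrays with the contrast against 0 h. All 7 named probe sets of expansins, xyloglucan endotransglycosylase and GASA14 were higher at 1 h than at 0.5 h. The firm expansin differed by 1.98 and the endotransglycosylase by 1.91 (limma adjusted p = 0.00952 for both), and EXP1 by 2.22 (limma adjusted p = 0.0110). At 0.5 h against 0 h their changes were -0.09, -0.22 and -1.06. EXP2 differed from 0.5 h by 1.32 and 1.05, and GASA14 by 1.58 and 1.80 (limma adjusted p from 0.0118 to 0.114). All of these calls held in each of the 4 fits that left out 1 array of either time, except that of EXP2 on GmaAffx.93176.1.S1_s_at, which was lost without 1 h replicate 2 or either 0.5 h array.

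The WRKY factors, NAC6 and PPCK2 were already higher at 0.5 h than at 0 h. Against 0 h, the changes at 0.5, 1 and 3 h were 1.59, 1.84 and 1.45 for WRKY12, 2.09, 1.58 and 1.06 for Gma.1256.1.S1_at and 1.5, 1.65 and 1.05 for NAC6. None of the 4 WRKY probe sets or NAC6 was called between 1 h and 0.5 h. PPCK2 had changes of 1.71, 1.59, 0.88, 1.28, 1.49 and 1.79 at the 6 times from 0.5 to 24 h, and of the named rises it was the one farthest above 0 h at 24 h. Its level at 3 h was called lower than at 1 h (-0.70, limma adjusted p = 0.0480), a call lost without 1 h replicate 1 or either 3 h array. WRKY12 lay at -1.97 and Gma.1256.1.S1_at at -2.64 at 24 h.

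AOS1, FAD7-2 and MYB122 were higher at 3 h than at 1 h. They were named for their falls at 1 h, and this comparison uses the same 1 h arrays, so that choice favours a rise. The contrast of 3 h with 1 h called 4902 probe sets (17.2%), 1574 higher (5.51%) and 3328 lower (11.7%). The median change of all tested probe sets was -0.12 there, and after median-centring of the arrays 2236 were higher and 1742 lower, so which direction held more calls depended on the scaling. Leaving out 1 array of those times gave totals of 947 (without 3 h replicate 2) to 2826 (without 1 h replicate 2). The change of AOS1 was 2.01 (limma adjusted p = 0.0129), of FAD7-2 2.29 (limma adjusted p = 0.0118) and of MYB122 2.87 (limma adjusted p = 0.00733). Against 0 h they lay at 0.57, 0.85 and 1.43 at 3 h and at -3.01, -2.50 and -3.35 at 12 h, and AOS1 was not called at 3 h (limma adjusted p = 0.248) and was called lower at 6 h (-1.09). The 3 calls of 3 h against 1 h held in each of the 4 fits that left out 1 array of either time, with limma adjusted p-values up to 0.0667. ALDH3J2, below background on both 1 h arrays, was also called higher at 3 h (limma adjusted p = 0.0118), whereas SCAM-4, SCAM-5, the pectinesterase and the NAM-like gene were not called between 1 h and 3 h. The firm GmaAffx.38122.1.S1_at stayed between 2.04 and 3.05 log2 units below 0 h at every time of NaHCO3.

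**Figure D5:**
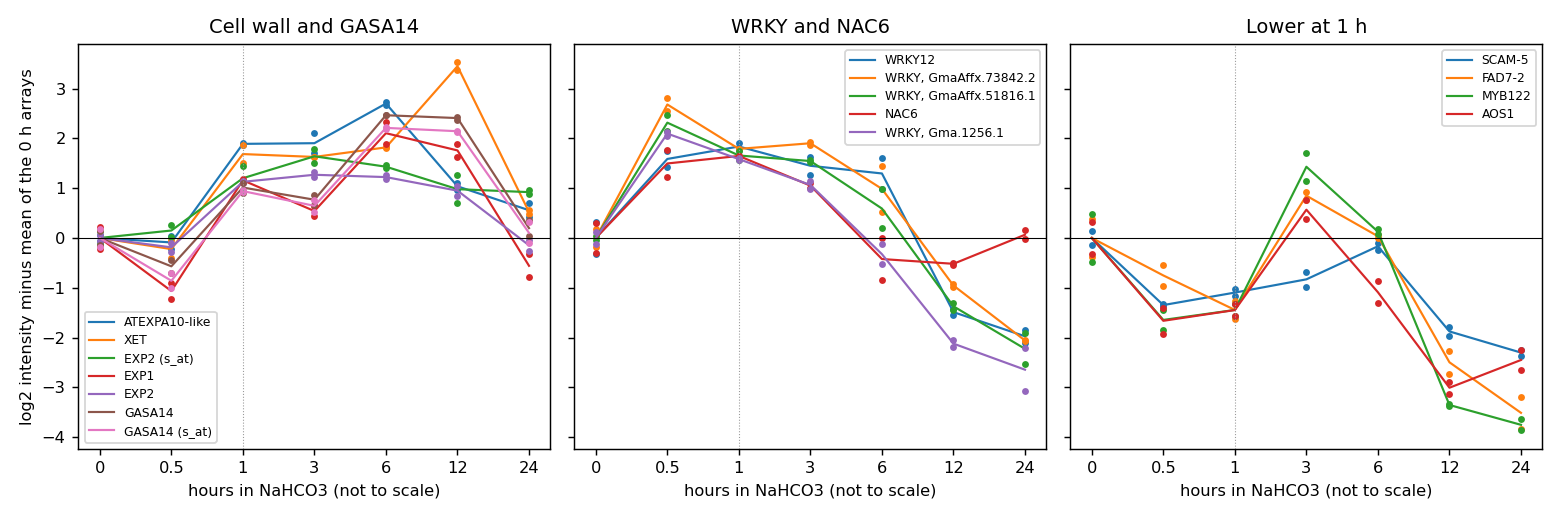
Log2 intensity minus the mean of the 0 h arrays (y axis) at each sampling time (x axis, evenly spaced, not to scale), with points for arrays and lines through the means of 2. The cell wall genes and GASA14 were near or below 0 at 0.5 h and above it at 1 h, the WRKY factors and NAC6 were above 0 from 0.5 h, and AOS1, FAD7-2 and MYB122 were below 0 at 1 h and above it at 3 h.

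Most gene groups held no call at 1 h. Of 34 lists with a tested member, 9 held a call. Aquaporins had 0 of 25 probe sets called and a median change of 0.06, and the list of ion transport genes, with the sodium and proton exchanger NHX1 among its members, had 0 of 7 called with changes between -0.29 and 0.18. Heat shock proteins and factors had 0 of 30 called (median 0.05), flavonoid and isoflavonoid enzymes 0 of 44 (median 0.20), glutathione S-transferases 0 of 38 (median -0.19), antioxidant enzymes 0 of 35 (median -0.11), bZIP factors 0 of 83 (median -0.13) and cytochromes P450 0 of 34 (median -0.06). With 2 arrays per group these counts do not show that the genes did not change.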

How the data were processed

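The authors deposited intensities computed with dChip (perfect-match probes only), from 14 arrays scaled in 2 steps, with 1 array of each time brought to the overall median and its partner fitted to it through an invariant set of probes. These linear values were used on the log2 scale with values under 1 raised to 1, and were not normalized again. The median intensity per array lay between 13.7 and 17.4, and 2 arrays per group limit the precision. The test took soybean probe sets whose mean log2 intensity passed background and whose median SD/mean of replicates over the 7 times was above 0 and under 0.5.

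Contrasts were fitted with limma 3.58.1 in R 4.3.3 (7 groups, 14 arrays, no covariates, 7 residual and 3.24 prior degrees of freedom), with p-values two-sided and adjusted over all 28566 probe sets. The methods' two-sample t-test was an alternative. The spread within times holds no technical difference between times. The procedure was run on 28317 simulated probe sets with independent noise on each array. It called 47 of 100 with a change of 1 log2 unit, 97 of 100 with a change of 2 and 24 of 28117 with none. The simulation held no technical difference between times and used another background limit, so it does not measure errors of that kind. Tables used Python 3.11.15 with pandas 2.3.3 and numpy 2.4.6, and figures matplotlib 3.10.9.

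Named genes were the firm probe sets, the 10 largest rises and 10 largest falls among called probe sets with a symbol or description, and up to 3 called members of each list. Symbols come from the array's annotation (1363 tested probe sets) and descriptions from the study's tables (2202), often the closest match in another species, and 117 of the 158 called have neither. The study's tables were chosen on these arrays. The genes and the 35 symbol lists were chosen with earlier results of these data known, and 5 list patterns were trimmed after symbols were seen. Present calls and QRT-PCR values were not used.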

Additional observations from a re-analysis of the deposited data

Results flagged for a closer look

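In 7 probe sets the change from 0 h at 1 h differed from that at 0.5 h by limma's test of 1 h against 0.5 h, in which both changes share the 0 h arrays and so reduce to the difference between the arrays of the 2 times. The differences on the log2 scale were 1.98 for the expansin Gma.10775.2.S1_s_at (limma adjusted p = 0.00952), 1.91 for the xyloglucan endotransglycosylase (0.00952), 2.22 for EXP1 (0.0110), 1.32 (0.0146) and 1.05 (0.114) for the probe sets of EXP2, and 1.58 (0.0144) and 1.80 (0.0118) for those of GASA14. All 7 were higher at 1 h. They were examined because they had been called at 1 h, and the 0.5 h array labelled replicate 1 had dim hybridization controls (9.45, against 10.22 on replicate 2 and 10.09 and 10.66 at 1 h). Without that array 6 of the 7 calls held, and that of EXP2 on GmaAffx.93176.1.S1_s_at did not.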

How the results depend on the processing

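Counts are given as total, higher and lower for 1 h against 0 h, where the main values were 158, 51 and 107. Without the filter on low values they were 91, 29 and 62, with values under 16 raised to 16 the total was 248 with 173 lower, and with an intensity trend in the prior variance 166 were lower. An adjusted p under 0.05 left 12, 6 and 6. The limma fit on 4 arrays and the methods' t-test with Benjamini-Hochberg or Storey adjustment called 0, 0 and 0, with 2554 and 1868 probe sets at an unadjusted p under 0.05. Leaving out 1 array gave totals of 15 to 210, 6 to 67 higher and 3 to 143 lower. Leaving out either replicate of another time gave the same counts as its partner, since a time with 1 array adds nothing to the spread. No direction of the 158 was reversed in any of 27 settings. Leaving out 1 array could not reverse one, since the arrays of the 2 groups did not overlap in any of the 158. Several other settings, such as the stricter limit on adjusted p, left the size of each change as it was. Of the results for named probe sets 513 kept their side of the threshold and 296 fell below it. The cause of these changes was not tested.

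The replicate numbers of 1 h and 0 h did not pair (correlation of replicate differences -0.216). With the number as a replicate block the counts were 59, 19 and 40, of which 56 were among the 158, and 346 for 1 h against 0.5 h and 4741 for 3 h against 1 h. With the numbers crossed, a setting chosen after seeing the data, the block gave 133, 41 and 92. Also chosen after seeing the data, leaving out both arrays with dim hybridization controls gave 181.

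For 1 h against 0.5 h (441, 243, 198) the unfiltered counts were 149, 87 and 62, and leaving out 1 array of those times gave totals of 22 to 616, 18 to 424 higher and 4 to 192 lower. For 3 h against 1 h (4902, 1574, 3328) centring each array on its median left 1742 lower and the unfiltered fit 2140 lower, and leaving out 1 array of those times gave totals of 947 to 2826, 325 to 816 higher and 573 to 2010 lower. Leaving out 1 array called 0 to 1 pathogen probe sets. With 2 arrays per group precision is limited, and values near background are bounds only.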

Other observations

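LOC100170674, a gene known here by symbol only and chosen after its values were seen, was called lower at 1 h in 4 of its 7 tested probe sets, with a median change of -1.70 over all 7 and changes from -2.0 to -0.61. Its Gma.4167.1.S1_at had 5.07 and 5.07 at 1 h and 6.72 and 7.42 at 0 h (SE 0.27, limma adjusted p = 0.0438), a call lost when 1 h replicate 2 or 0 h replicate 2 was left out. A pair of probe sets described as class I homeodomain-leucine zipper (HD-Zip) factors, also named after their values were seen, were lower as well. Gma.4394.1.S1_a_at had 9.35 and 9.39 at 1 h and 10.27 and 10.12 in unstressed roots (a fall by 0.83, limma adjusted p = 0.0928), and GmaAffx.91312.1.S1_s_at had 8.31 and 8.56 at 1 h and 9.52 and 9.26 in unstressed roots (a fall by 0.95, limma adjusted p = 0.0868). No leave-one-out fit kept these HD-Zip calls.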
